A study of Homo sapiens with 16 samples.

Results

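The high mobility group (HMG) chromatin proteins were followed through 8 genes, HMGB1, HMGB3, HMGA1, HMGA2, HMGN1, HMGN2, HMGN3 and HMGN5, out of 58721 genes in the deposited table, of which 22910 had at least 1 count. The rows were selected on gene name, and the family was chosen by values in these same libraries: HMGB1 had been lower under both siRNAs against FOXA1 in both lines, and HMGA2 higher under siFOXA1.2 in RT112. Those contrasts are therefore given below as a description without a test, for HMGB1 in every comparison of a siFOXA1 siRNA with the controls. The 16 libraries came from RT112, a bladder cancer line of luminal papillary type grown in RPMI, and SCaBER, a basal/squamous line grown in DMEM, so that line and medium cannot be told apart. Each line was transfected with 10 nM of siControl.1, siControl.2, siFOXA1.1 or siFOXA1.2, with 2 libraries per siRNA numbered by experiment batch, and no untransfected cells are among the groups. FOXA1 is a forkhead factor of luminal urothelial cells.

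HMG proteins are small and abundant proteins that bind DNA or nucleosomes with little sequence preference and alter how compact chromatin is. They fall into 3 families. HMGB proteins bend DNA with a domain called the HMG box, HMGA proteins bind the minor groove of AT-rich DNA through AT-hooks, and HMGN proteins bind the nucleosome core. HMGB1 also acts outside the cell as an alarm signal, and HMGA2 is a target of let-7 microRNAs that is high in embryonic tissue and in many tumours.

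In RT112, FOXA1 had 18.2 to 35.0 CPM (counts per 1000000 counts of the library) in the 4 siControl libraries, 1.32 and 3.24 CPM under siFOXA1.1, and 9.18 and 16.0 CPM under siFOXA1.2. FOXA1 thus stood at 8.21% and 45.3% of the siControl mean, and edgeR called only its fall under siFOXA1.1 (adjusted p under 0.05). In SCaBER it had 0 to 15 counts per library, so the knock-down could not be read there. Library totals ranged from 4528513 to 7604581 counts, and 3 counts, taken as the limit of detection, were 0.394 to 0.662 CPM. This limit covers counting error only. Mitochondrial genes took 25.7% and 28.2% of counts under siFOXA1.1 in RT112, against 18.0% to 21.2% in the other RT112 libraries and 10.3% to 12.1% in SCaBER. The lines matched their labelled types: the summed level of 8 luminal markers was 2459 to 2968 CPM in RT112 siControl libraries and 1053 to 1342 CPM in SCaBER, and that of 7 basal markers 340.2 to 503 CPM and 2216 to 3703 CPM. Immune markers summed to at most 1.52 CPM in any library and endothelial markers to at most 11.2 CPM. Of 3 fibroblast markers, DCN had 0 counts in all 16 libraries, COL1A2 at most 6, and COL1A1 stood at 53.9 and 56.5 CPM under siFOXA1.1 in RT112 against 7.50 to 14.3 CPM in the other RT112 libraries. Nothing in the labels says that the libraries of a group came from separate cultures beyond the batch number, so the p-values below measure the spread between these libraries.

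The promoters of the members are shown because the members differed in their response and the knocked-down protein is a DNA-binding factor. RefSeq on GRCh38.p14 gave 11 promoter entries for 7 of the 8 members, and none was matched for HMGA2. Each entry holds 250 bases before the transcription start and 50 after it. The first entries of HMGB1 (chr13:30465887-30466186, minus strand), HMGB3 (chrX:150983085-150983384, plus strand) and HMGN2 (chr1:26472190-26472489, plus strand), the genes lowered most by siFOXA1.1, and of HMGN3 (chr6:79234633-79234932, minus strand), lowered most by siFOXA1.2, are printed 5′ to 3′ along the gene. Capitals mark CCAAT, or ATTGG where it lies on the other strand.
HMGB1: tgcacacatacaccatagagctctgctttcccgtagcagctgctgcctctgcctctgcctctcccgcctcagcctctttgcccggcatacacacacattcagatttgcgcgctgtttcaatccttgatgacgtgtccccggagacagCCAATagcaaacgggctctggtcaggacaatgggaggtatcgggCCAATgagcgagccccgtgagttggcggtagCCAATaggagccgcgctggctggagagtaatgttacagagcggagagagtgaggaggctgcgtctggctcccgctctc
HMGB3: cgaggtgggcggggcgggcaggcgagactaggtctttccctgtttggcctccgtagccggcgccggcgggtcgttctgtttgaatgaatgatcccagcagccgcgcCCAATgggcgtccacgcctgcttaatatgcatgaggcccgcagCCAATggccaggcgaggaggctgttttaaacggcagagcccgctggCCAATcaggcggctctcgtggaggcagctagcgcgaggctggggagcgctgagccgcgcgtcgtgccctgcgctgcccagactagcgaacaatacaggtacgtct
HMGN2: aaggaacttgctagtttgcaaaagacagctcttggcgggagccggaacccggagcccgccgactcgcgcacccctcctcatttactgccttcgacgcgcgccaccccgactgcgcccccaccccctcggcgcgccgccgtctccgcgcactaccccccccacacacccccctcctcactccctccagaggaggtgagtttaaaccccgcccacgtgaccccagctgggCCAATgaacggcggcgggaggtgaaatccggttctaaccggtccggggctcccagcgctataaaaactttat
HMGN3: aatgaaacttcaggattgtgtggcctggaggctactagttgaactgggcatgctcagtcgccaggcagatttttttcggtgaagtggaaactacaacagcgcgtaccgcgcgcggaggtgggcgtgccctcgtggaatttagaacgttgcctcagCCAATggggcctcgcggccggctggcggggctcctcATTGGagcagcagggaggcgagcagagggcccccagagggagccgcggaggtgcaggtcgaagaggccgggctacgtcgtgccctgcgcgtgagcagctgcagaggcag
CCAAT on either strand was found in 8 of the 11 entries and in 34.6% of all 35116 RefSeq promoters. In the printed HMGB1 promoter it occurred 3 times, starting 103, 59 and 28 bases before the start site. HMGB3 likewise held it 3 times, HMGN3 held it 2 times and HMGN2 once. The forkhead motif TGTTTAC, searched on both strands, was in 0 of the 11 entries and in 3.42% of all promoters, and a second form, TGTTTGC, was in 1 entry, that of HMGN5, against 3.89% of all promoters. These matches describe letters in a 300-base window only.

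**Figure D1:**
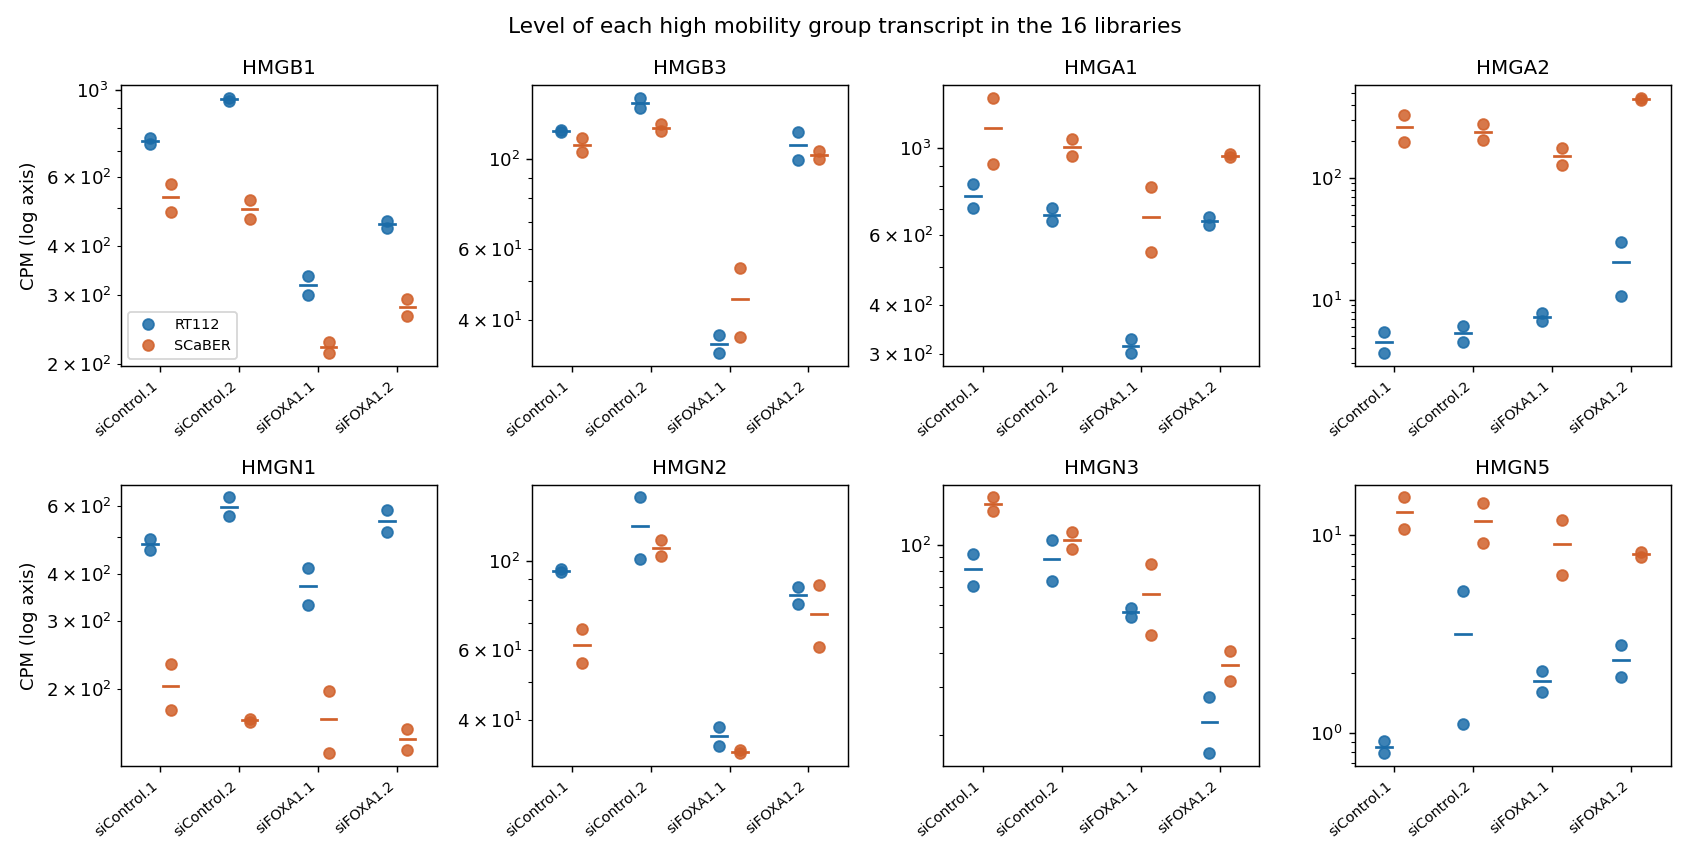
Level of the 8 members in each library, in CPM on a log axis that differs between panels, with RT112 in blue and SCaBER in orange; each point is 1 of 2 libraries and the short line is their mean. HMGB1 under siFOXA1.1 lay between 212 and 335 CPM, below every siControl library of its line, and HMGA2 was between 3.62 and 30.0 CPM in RT112 and between 128 and 455 CPM in SCaBER.

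HMGB1 (ENSG00000189403, chromosome 13, 30456704 to 30617597 on GRCh38.p14) encodes the most abundant HMG box protein. In RT112 it had 729 and 754 CPM under siControl.1, 958 and 939.6 CPM under siControl.2, 335 and 300.4 CPM under siFOXA1.1, and 445 and 464 CPM under siFOXA1.2. In SCaBER the values were 489.7 and 577 CPM, 469.8 and 524 CPM, 228 and 212 CPM, and 265 and 292 CPM, in the same order. All siFOXA1 libraries lay below all siControl libraries of their line, and the siFOXA1.1 and siFOXA1.2 libraries did not overlap each other in either line.

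As a share of the siControl mean CPM, HMGB1 was at 37.6% under siFOXA1.1 and 53.8% under siFOXA1.2 in RT112, and at 42.7% and 54.0% in SCaBER. These shares rest on library totals, which include the mitochondrial counts. The fitted log2 changes use libraries scaled to each other (TMM), where the RT112 siFOXA1.1 libraries had 352 and 329 CPM, a smaller fall. The log2 changes were -1.27 (SE 0.098) and -0.87 (SE 0.096) in RT112, and -1.19 (SE 0.17) and -0.87 (SE 0.17) in SCaBER. Within batches the change under siFOXA1.1 was -1.21 and -1.32 for RT112 batches 1 and 2, with -1.01 and -1.37 for SCaBER. Under siFOXA1.2 the batches gave -0.89 and -0.84 for RT112, with -0.84 and -0.89 for SCaBER. The changes in the lines differed by -0.09 (SE 0.18) for siFOXA1.1 and by 0.00 (SE 0.18) for siFOXA1.2, taken as RT112 minus SCaBER. The log2 difference of HMGB1 between the siRNAs, siFOXA1.1 minus siFOXA1.2, was -0.40 in RT112 (SE 0.11) and -0.33 in SCaBER (SE 0.19), given without a test because low HMGB1 in these libraries chose the family.

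HMGB1 has 48 rows of named pseudogenes, 21 of them with counts, and near-identical copies can take reads from the gene. They held 1.17% to 5.66% of the summed counts, and adding them moved the siFOXA1.1 level only from 0.376 to 0.382 of the siControl mean in RT112 and from 0.427 to 0.436 in SCaBER.

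HMGB3 (chromosome X, 150980507 to 150990771) encodes a second HMG box protein, known from blood progenitors and embryonic tissue. It had 118, 117, 134 and 142 CPM in the RT112 siControl libraries, 36.8 and 33.0 CPM under siFOXA1.1, and 99.7 and 117 CPM under siFOXA1.2. In SCaBER the siControl libraries had 104, 113, 122 and 117 CPM, the siFOXA1.1 libraries 53.8 and 36.3 CPM, and the siFOXA1.2 libraries 99.96 and 105 CPM. The siFOXA1.1 libraries stood apart from all others in both lines. HMGB3 fell by 1.73 in log2 under siFOXA1.1 in RT112 (SE 0.16, edgeR adjusted p = 2.99e-07) and by 1.30 in SCaBER (SE 0.23, adjusted p = 0.00261). Under siFOXA1.2 the log2 changes were -0.22 (SE 0.15) in RT112 and -0.13 (SE 0.22, adjusted p = 0.999) in SCaBER. Pseudogenes of HMGB3 held up to 10.4% of its summed counts in an RT112 library.

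HMGB2, the close relative that is not among the 8 members, had 74.6 to 126 CPM in RT112 siControl libraries, 18.3 and 13.8 CPM under siFOXA1.1, and 123 and 119 CPM under siFOXA1.2. It fell by 2.53 under siFOXA1.1 in RT112 (SE 0.19, adjusted p = 2.40e-08 in edgeR) and by 1.45 in SCaBER (SE 0.34, adjusted p = 0.0142), on the log2 scale. Its log2 changes under siFOXA1.2 were 0.27 (SE 0.16, adjusted p = 0.561) and -0.28 (SE 0.31, adjusted p = 0.999). Between the siFOXA1 siRNAs it differed by -2.80 in RT112 (SE 0.21, adjusted p = 3.08e-08) and by -1.17 in SCaBER (SE 0.37, adjusted p = 0.0893). HMGB4 had 0 counts in all 16 libraries.

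HMGA1 (chromosome 6, 34236873 to 34246231), an AT-hook protein of dividing and transformed cells, had 652 to 808 CPM in RT112 siControl libraries. It had 328 and 301 CPM under siFOXA1.1 and 636 and 668 CPM under siFOXA1.2. In SCaBER it had 908 to 1339.9 CPM in siControl libraries, 545 and 794 CPM under siFOXA1.1, and 946 and 964 CPM under siFOXA1.2. In RT112 it fell by 1.05 on the log2 scale under siFOXA1.1 (SE 0.10, adjusted p = 4.49e-07 in edgeR). In SCaBER it fell by 0.64 (SE 0.19, adjusted p = 0.0455), but 11 of 17 alternatives lost this call (highest adjusted p 0.176). Under siFOXA1.2 the log2 changes of HMGA1 were -0.11 (SE 0.097) in RT112 and -0.13 (SE 0.18, adjusted p = 0.999) in SCaBER.

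HMGA2 (chromosome 12, 65824460 to 65966291), the second AT-hook gene, was low in RT112 and higher in SCaBER. In RT112 it had 5.39 and 3.62 CPM under siControl.1, 4.52 and 6.12 CPM under siControl.2, 7.76 and 6.63 CPM under siFOXA1.1, and 10.8 and 30.0 CPM under siFOXA1.2. These were 24 to 53 counts in all libraries but those of siFOXA1.2, which had 74 and 220. Both siFOXA1.2 libraries were above the rest, and the library of batch 2 stood far above that of batch 1. The log2 change under siFOXA1.2 was 2.08 (SE 0.47) with both libraries, 1.15 without replicate 2 and 2.63 without replicate 1.

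In SCaBER, HMGA2 had 198 and 328 CPM under siControl.1, 204 and 275 CPM under siControl.2, 128 and 175 CPM under siFOXA1.1, and 437 and 455 CPM under siFOXA1.2. The siFOXA1.1 libraries lay below every siControl library and the siFOXA1.2 libraries above. The siRNAs against FOXA1 differed by -1.55 on the log2 scale, siFOXA1.1 minus siFOXA1.2 (SE 0.25, adjusted p = 0.00256 in edgeR), with -1.73 in batch 1 and -1.40 in batch 2. On log2(TPM + 1) in limma the difference was -1.53 with an adjusted p of 0.0514. Against both controls, HMGA2 in SCaBER had a log2 change of -0.70 under siFOXA1.1 (SE 0.22, adjusted p = 0.0619), which passed with the replicate block (-0.69, adjusted p = 0.0160), in DESeq2 (0.0263), without the filter (0.0115) and without siControl.1 replicate 1 (0.0228) or siFOXA1.1 replicate 2 (0.0380). The change was 0.85 under siFOXA1.2 (SE 0.21, adjusted p = 0.435; 0.0540 with the replicate block), which passed in DESeq2 (adjusted p = 0.0313) and without the filter (0.00746).

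Under siFOXA1.1 the log2 change of HMGA2 was 0.69 in RT112 (SE 0.49), and the difference between the lines was 1.37 (SE 0.45). Both are given without a test, because they share the RT112 siControl libraries with the contrast that chose the family. Both siFOXA1.1 libraries lay above the siControl libraries in RT112 and below them in SCaBER.

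HMGN1 (chromosome 21, 39342315 to 39349088), a nucleosome-binding protein linked to DNA repair and open chromatin, had 462 to 633 CPM in RT112 siControl libraries, 332 and 413 CPM under siFOXA1.1, and 512 and 586 CPM under siFOXA1.2. It fell by 0.38 in log2 under siFOXA1.1 in RT112 (SE 0.12, edgeR adjusted p = 0.0162), the smallest of the called changes. Without siFOXA1.1 replicate 1 the change was -0.22 (adjusted p = 0.213), and it also lost its call without siControl.1 replicate 2 (adjusted p = 0.0503) and siControl.2 replicate 2 (adjusted p = 0.0502). Against siControl.1 alone it was -0.25 (adjusted p = 0.169). In SCaBER HMGN1 had 163 to 232 CPM in siControl libraries and 136 and 197 CPM under siFOXA1.1, a log2 change of -0.11 (SE 0.20, adjusted p = 0.801). Under siFOXA1.2 the log2 change of HMGN1 was 0.06 in RT112 (SE 0.11). It was -0.30 in SCaBER (SE 0.20, adjusted p = 0.999), where the libraries, at 156 and 138 CPM, lay below all siControl libraries. Pseudogenes held up to 8.56% of its summed counts in SCaBER.

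HMGN2 (chromosome 1, 26472440 to 26476642), the other ubiquitous nucleosome binder, had 95.3, 93.6, 144 and 101 CPM in RT112 siControl libraries, 34.4 and 38.6 CPM under siFOXA1.1, and 86.3 and 78.1 CPM under siFOXA1.2. In SCaBER the siControl.1 libraries had 67.6 and 55.6 CPM, the siControl.2 libraries 112 and 103 CPM, the siFOXA1.1 libraries 33.7 and 33.1 CPM, and the siFOXA1.2 libraries 86.8 and 60.8 CPM. HMGN2 fell under siFOXA1.1 by 1.42 in RT112 (SE 0.19, adjusted p = 1.51e-05 in edgeR) and by 1.26 in SCaBER (SE 0.25, adjusted p = 0.00493), on the log2 scale. Its controls differed more than those of the other members in SCaBER, by -0.82 for siControl.1 minus siControl.2 (SE 0.27, adjusted p = 0.510, unadjusted 0.00775). Against siControl.1 alone the SCaBER change was -0.85 (adjusted p = 0.0846). Under siFOXA1.2 the log2 change of HMGN2 was -0.37 in RT112 (SE 0.18), with both libraries below all siControl libraries, and -0.12 in SCaBER (SE 0.23, adjusted p = 0.999).

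HMGN3 (chromosome 6, 79201245 to 79234682), a nucleosome binder with a more restricted tissue pattern, was lowered most by siFOXA1.2. In RT112 it had 92.0 and 70.5 CPM under siControl.1, 73.3 and 104 CPM under siControl.2, 54.5 and 58.5 CPM under siFOXA1.1, and 17.2 and 27.7 CPM under siFOXA1.2. In SCaBER the values were 132 and 149 CPM, 111 and 96.1 CPM, 46.8 and 84.7 CPM, and 40.7 and 31.7 CPM, in the same order. The siFOXA1.2 libraries were at 26.4% of the siControl mean CPM in RT112 and 29.7% in SCaBER, and the siFOXA1.1 libraries at 66.5% and 53.9%. These shares too are without the TMM scaling of the fits.

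Under siFOXA1.2 the log2 change of HMGN3 was -1.90 in RT112 (SE 0.24), in a contrast used to choose the family. In SCaBER it fell by 1.72 (SE 0.26, adjusted p = 0.0425 in edgeR; 0.0120 with the replicate block), with -1.55 in batch 1 and -1.88 in batch 2. Leaving out any 1 of the 6 SCaBER libraries of siControl or siFOXA1.2 ended this call, with adjusted p of 0.0774 to 1.00. In RT112 HMGN3 was 1.44 higher under siFOXA1.1 than under siFOXA1.2 in log2 (SE 0.26, edgeR adjusted p = 0.000440). In SCaBER the difference was 0.86 (SE 0.28, adjusted p = 0.103). Under siFOXA1.1 it fell by 0.85 in SCaBER (SE 0.25, adjusted p = 0.0453; 0.0293 with the replicate block), but 10 of 17 alternatives lost this call (highest adjusted p 0.230). In RT112 the log2 change under siFOXA1.1 was -0.45 (SE 0.22, adjusted p = 0.127), and it passed with library totals alone (adjusted p = 0.0498) and in both limma fits (0.0256 and 0.0322).

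HMGN5 (chromosome X, 81113699 to 81201913), a nucleosome-binding protein with a long acidic tail, was the member with the fewest reads. It had 6 to 39 counts per library in RT112, or 0.789 to 5.19 CPM, and 33 to 93 counts in SCaBER, or 6.25 to 15.5 CPM. Its log2 changes under siFOXA1.1 were 0.30 in RT112 (SE 1.08, adjusted p = 0.866) and -0.43 in SCaBER (SE 0.49, adjusted p = 0.672). Under siFOXA1.2 they were 0.52 in RT112 (SE 1.07) and -0.62 in SCaBER (SE 0.49, adjusted p = 0.999). HMGN4, a relative outside the members, had 0 to 80 counts per library and no call against the controls in either line.

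**Figure D2:**
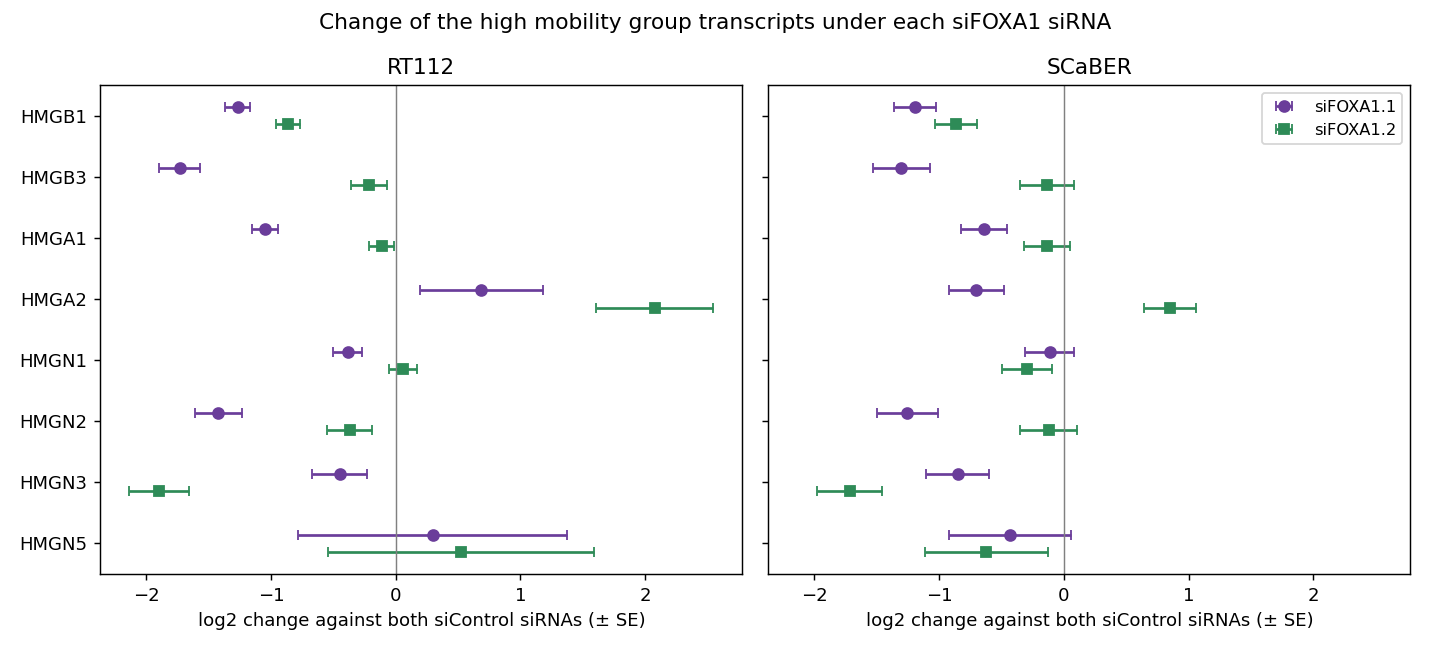
Fitted log2 change of each member under siFOXA1.1 (purple circles) and siFOXA1.2 (green squares) against both control siRNAs, with bars of 1 SE, in RT112 (left) and SCaBER (right). HMGB3, HMGA1 and HMGN2 lay further left under siFOXA1.1 than under siFOXA1.2 in both lines, HMGB1 was lower under both siRNAs, and HMGN3 was lowest under siFOXA1.2.

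Counted over the members, all 8 of which passed the filter on low counts in every comparison, siFOXA1.1 lowered 5 of 8 in RT112, HMGB1, HMGB3, HMGA1, HMGN1 and HMGN2, and raised 0. Of all 11986 genes tested there, 17.0% were called lower. In SCaBER it lowered 5 of 8, HMGB1, HMGB3, HMGA1, HMGN2 and HMGN3, where 4.79% of 11902 genes were called lower. HMGB1 is 1 of each 5 and was chosen for this direction. The median log2 change of the 8 members was -0.75 in RT112 and -0.78 in SCaBER, against -0.01 and 0.01 over all genes tested. The SCaBER count was 3 without any 1 of 6 libraries (siControl.1 replicate 2, either siControl.2 library, siFOXA1.1 replicate 1 or either siFOXA1.2 library), and 6 with the replicate block.

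Under siFOXA1.2, 3 of 8 members were called in RT112, HMGB1 and HMGN3 lower and HMGA2 higher, where 2.04% of all genes were called in either direction. This is a contrast that chose the family, and nothing is read from that count. In SCaBER 1 of 8 was called, HMGN3, where 0.0420% of all genes, 5 of 11902, were called. The median log2 change of the members was -0.16 in RT112 and -0.21 in SCaBER. With the siFOXA1 siRNAs pooled, the contrast that showed HMGB1, 1 of 8 members was called in RT112 (HMGB1, log2 change -1.06, SE 0.16; 0.108% of all genes) and 0 of 8 in SCaBER (HMGB1 -1.02, SE 0.16; 0.00840% of all genes). In that pooled SCaBER comparison 1059 genes had an unadjusted p under 0.05, and DESeq2 called 2 members. Nothing is read from these pooled counts either.

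The siFOXA1 siRNAs were also compared with each other, in the same fits, where the control libraries enter the estimate of the spread. In RT112, 5 of 8 members were lower under siFOXA1.1 than under siFOXA1.2, where 15.1% of all genes were called lower, and 1 of 8, HMGN3, was higher, where 13.0% were called higher. HMGB1 is 1 of the 5, and nothing is read from its place in that count. HMGB3 differed by -1.52 (SE 0.18, adjusted p = 5.88e-06 in edgeR), HMGN2 by -1.05 (SE 0.21, adjusted p = 0.000975) and HMGA1 by -0.94 (SE 0.11, adjusted p = 8.04e-06). HMGN1 differed by -0.44 (SE 0.13, adjusted p = 0.0182), and its call was lost without siFOXA1.1 replicate 1 (-0.27) or siFOXA1.2 replicate 2 (-0.34). In SCaBER, 3 of 8 were lower, where 2.80% of all genes were: HMGA2, HMGB3 (-1.17, SE 0.25, adjusted p = 0.0157) and HMGN2 (-1.13, SE 0.27, adjusted p = 0.0259). That count was 1 without siFOXA1.1 replicate 2 or either siFOXA1.2 library, and HMGN2 also lost its call without siControl.2 replicate 1 (adjusted p = 0.0645) or replicate 2 (0.0651).

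The control siRNAs against each other gave the background. With edgeR, 0 of 8 members were called between siControl.1 and siControl.2 in RT112, where 2.36% of all genes were called and 1577 passed 0.05 before adjustment. For SCaBER 0 of 8 were called, where 0.0672% of all genes were called and 790 had an unadjusted p under 0.05. DESeq2 called 1 member in RT112, HMGB1, which was lower under siControl.1 by a log2 difference of -0.30 (adjusted p = 0.0377 in DESeq2) and by -0.29 in edgeR (SE 0.11, adjusted p = 0.200).

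The lines were compared under the control siRNAs. This contrast was not used to choose the family, but its siControl libraries were, so the differences of HMGB1 and HMGA2 are given without a test. In RT112 2 of 8 members were higher than in SCaBER, where 22.5% of all 12309 genes were called higher, and 4 of 8 were lower, where 23.4% were called lower, counts that include HMGB1 and HMGA2. The largest difference was in HMGA2, with 3.62 to 6.12 CPM in RT112 and 198 to 328 CPM in SCaBER, a log2 difference of -5.65 (SE 0.23). HMGN5 was also lower in RT112, by -2.80 (SE 0.61, adjusted p = 0.00156 in edgeR), with 0.789 to 5.19 CPM against 9.09 to 15.5 CPM. HMGN1 was higher in RT112 by 1.56 (SE 0.14, adjusted p = 4.48e-07), with 462 to 633 CPM against 163 to 232 CPM.

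Smaller line differences were found for HMGB1 (0.72, SE 0.11; 0.32 on log2(TPM + 1) in limma), HMGA1 (-0.56, SE 0.12, adjusted p = 0.00147) and HMGN3 (-0.50, SE 0.16, adjusted p = 0.0235), on the log2 scale. The HMGN3 call was lost without SCaBER siControl.1 replicate 1, RT112 siControl.2 replicate 1 or RT112 siControl.1 replicate 2. HMGN2 had a log2 difference of 0.41 (SE 0.16, adjusted p = 0.0534; 0.0442 with the replicate block), and HMGB3 one of 0.17 (SE 0.12, adjusted p = 0.252).

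**Figure D3:**
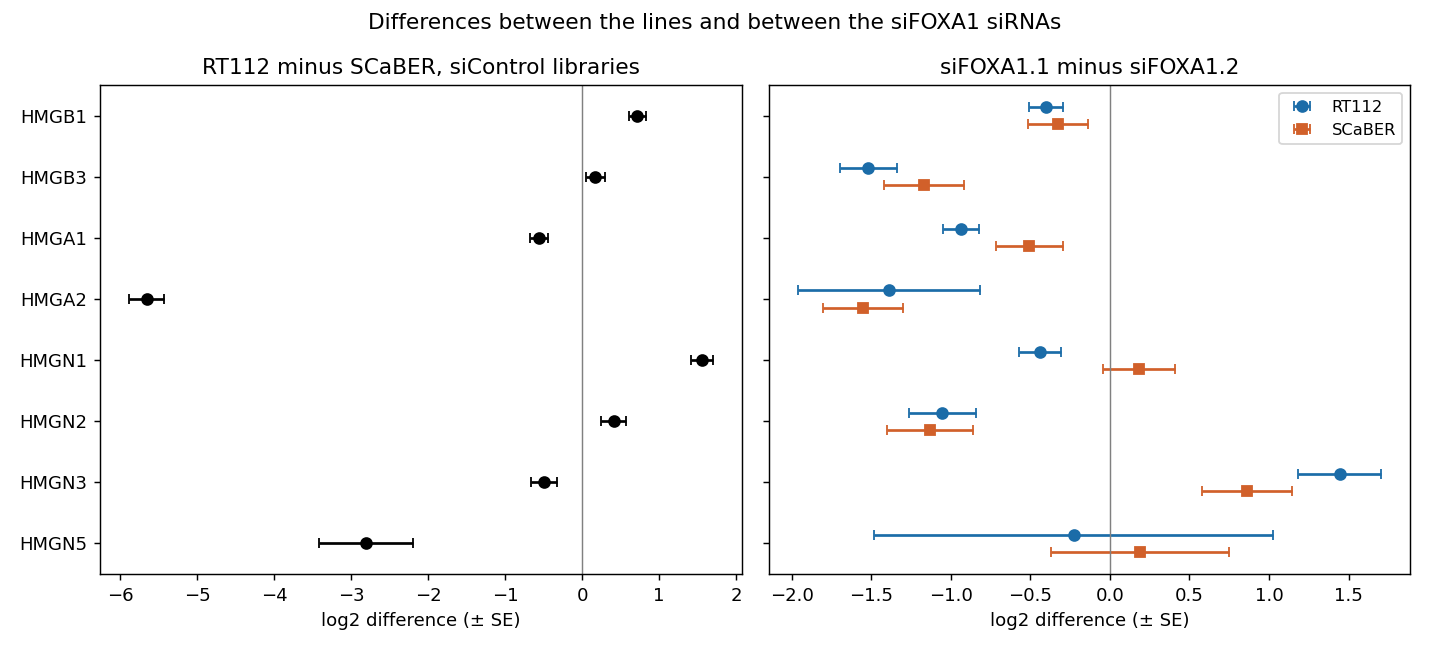
Log2 difference between RT112 and SCaBER in the siControl libraries (left) and between siFOXA1.1 and siFOXA1.2 within each line (right; RT112 blue circles, SCaBER orange squares), with bars of 1 SE. HMGA2 was lowest in RT112 relative to SCaBER at -5.65, and HMGN3 lay right of 0 on the right side, at 1.44 in RT112 and 0.86 in SCaBER.

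Whether the response differed between the lines was tested as an interaction over all 16 libraries. For siFOXA1.1, 0 of 8 members were called in edgeR, where 3.14% of 13701 genes were called and 2222 had an unadjusted p under 0.05. DESeq2 called 1 member, HMGA2, and nothing is read from that call, because its RT112 siControl libraries helped to choose the family. For siFOXA1.2, 0 of 8 were called, where 0.0438% of genes were called and 829 had an unadjusted p under 0.05, and DESeq2 called 0. For HMGB3 the difference between the lines was -0.45 under siFOXA1.1 (SE 0.26, adjusted p = 0.426), and for HMGN2 it was -0.18 (SE 0.30, adjusted p = 0.869).

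Other genes of the same machinery were taken from lists. Of 21 tested genes with an HMG box outside the HMGB family, 7 rose and 2 fell under siFOXA1.1 in RT112, where 15.6% of all genes were called higher and 17.0% lower. TOX3 had 13 to 33 counts in the siControl libraries and 0 in both siFOXA1.1 libraries, at least 6.25-fold lower with the floor of 3 counts per library (adjusted p = 0.00908 in edgeR). Among those that rose were TCF7L1, a repressor of the WNT pathway (2.26, SE 0.49, adjusted p = 0.00164 in edgeR), the factor SOX9 (1.55, SE 0.21, adjusted p = 2.08e-05) and HMGXB3 (1.27, SE 0.31, adjusted p = 0.00397). In SCaBER, where 4.47% of all genes were called higher and 4.79% lower, 0 of 22 rose and 2 fell, TOX2 (-1.55, SE 0.20, adjusted p = 0.000229) and TCF7L1 (-0.88, SE 0.25, adjusted p = 0.0375). Under siFOXA1.2 in RT112 SOX9 rose (1.29, SE 0.21, adjusted p = 0.00251), alone of the 21, and 0 of 22 were called in SCaBER.

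Linker histones compete with HMG proteins for the nucleosome. Of 6 tested, 3 fell under siFOXA1.1 in RT112 and 4 in SCaBER, against 17.0% and 4.79% of all genes called lower. Under siFOXA1.2, 0 were called in either line, where 2.04% and 0.0420% of all genes were. HIST1H1D had 93 to 121 counts in RT112 siControl libraries and 4 and 0 under siFOXA1.1 (log2 change -5.41, SE 0.76, adjusted p = 2.74e-05 in edgeR), and in SCaBER it fell by 2.56 (SE 0.55, adjusted p = 0.00961). HIST1H1B fell by 2.32 in RT112 (SE 0.57, adjusted p = 0.00409). In SCaBER it had 36 to 159 counts in siControl libraries and 1 and 0 under siFOXA1.1, or 0.519% of the siControl level (exact 95% interval of the count ratio 0.0131% to 2.91%; edgeR adjusted p = 0.000208). HIST1H1C fell in SCaBER (-0.66, SE 0.20, adjusted p = 0.0491). HIST1H1E fell by 1.77 (SE 0.55, adjusted p = 0.0186 in edgeR) in RT112 and by 2.83 (SE 0.48, adjusted p = 0.00203) in SCaBER. Most linker histone messages carry no poly(A) tail, so a 3′ kit primed on poly(A) reads few of them. Of 8 tested genes of the SET complex and its partners, which bind HMGB proteins, 3 fell and 1 rose under siFOXA1.1 in RT112, against 17.0% and 15.6% of all genes. The histone chaperones ANP32B (-1.50, SE 0.15, adjusted p = 4.69e-07) and SET (-0.92, SE 0.085, adjusted p = 2.36e-07) fell there, as did the export receptor XPO1 (-0.45, SE 0.17, adjusted p = 0.0481), and ANP32A rose (0.40, SE 0.14, adjusted p = 0.0296). ANP32A had 125 and 158 CPM under siFOXA1.1, 89.1 and 105 CPM under siControl.1, and 139 and 147 CPM under siControl.2. Its siFOXA1.1 libraries thus overlapped siControl.2. ANP32B was the 1 of 8 that fell in SCaBER (-0.93, SE 0.17, adjusted p = 0.00327), where 4.79% of all genes did. Under siFOXA1.2 ANP32A rose in RT112 (0.59, SE 0.13, adjusted p = 0.0257).

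Of 10 receptors and binding partners of HMGB1 outside the cell, 4 were tested in each line. THBD, which encodes thrombomodulin, fell under siFOXA1.1 in RT112 (-1.37, SE 0.42, adjusted p = 0.0167 in edgeR) and in SCaBER (-0.99, SE 0.27, adjusted p = 0.0352). In RT112 the siControl.1 libraries had 293 and 50 counts of THBD, or 38.5 and 7.55 CPM, and siControl.2 had 55.0 to 68.7 CPM. The siFOXA1.1 libraries, at 12.4 and 14.1 CPM, thus overlapped the siControl libraries. SDC1 fell (-0.80, SE 0.11, adjusted p = 3.25e-05) and CD24 rose (0.61, SE 0.15, adjusted p = 0.00345) in RT112. None of the 4 was called under siFOXA1.2 in either line. Of 8 genes of the let-7 and HMGA2 axis, such as the LIN28 and IGF2BP genes, 4 were tested and 0 were called against the controls under either siRNA in either line. Of all genes tested, 32.6% in RT112 and 9.26% in SCaBER were called under siFOXA1.1, with 2.04% and 0.0420% under siFOXA1.2. With 4 genes tested per list, nothing is read from the counts of 0.

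Proliferation markers moved with the siFOXA1.1 results. Of 12 markers 11 fell under siFOXA1.1 in each line, against 17.0% of all genes called lower in RT112 and 4.79% in SCaBER. Under siFOXA1.2, 0 were called in either line, where only 2.04% and 0.0420% of all genes were. The largest falls in RT112 were of CCNA2 (-4.04, SE 0.41, adjusted p = 7.46e-07 in edgeR), TYMS (-3.49), RRM2 (-3.27) and MKI67 (-3.27), and in SCaBER of MKI67 (-2.32, SE 0.19, adjusted p = 5.50e-06 in edgeR), RRM2 (-2.31), TYMS (-2.30) and BIRC5 (-1.68), on the log2 scale. Their summed level in RT112 was 3227 to 3834 CPM in siControl libraries, 415 and 786 CPM under siFOXA1.1, and 3253 and 3343 CPM under siFOXA1.2. In SCaBER it was 2696 to 3509 CPM, 876 and 1565 CPM, and 2964 and 3002 CPM. No marker was at 0 in any group. The part of cycling in the changes of the HMG genes was not tested.

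Markers of urothelial type and of fibroblasts also moved in the siFOXA1.1 libraries of RT112. Of 7 luminal markers tested there 6 fell, where 17.0% of all genes were called lower. They were led by FOXA1 (-3.44), UPK1A (-2.25), UPK2 (-1.08) and GATA3 (-0.82). FOXA1 is the target of the siRNA, so its fall is the knock-down itself and no result about luminal markers. UPK2 was the 1 that fell under siFOXA1.2 (-0.97, SE 0.19, adjusted p = 0.0106 in edgeR), where 2.04% of all genes were called in either direction. It had 143 and 173 CPM there, against 190 and 238 CPM under siControl.2 and 424 and 491 CPM under siControl.1. The size of this fall thus depends on the control siRNA. Of 7 basal markers 3 rose under siFOXA1.1, KRT5 (0.79), CD44 (0.72) and EGFR (0.52), and TP63 fell (-2.53). Of all genes 15.6% were called higher there and 17.0% lower. Under siFOXA1.1 KRT5 had 126 and 234 CPM and CD44 134 and 164 CPM. Both overlapped siControl.2, at 131 to 146 CPM for KRT5 and 122 to 138 CPM for CD44. EGFR, at 153 and 161 CPM, lay above all siControl libraries of the line. CD44 (1.33) and EGFR (0.51) rose under siFOXA1.2, where 2.04% of all genes were called. COL1A1, a collagen of fibroblasts, rose under siFOXA1.1 (2.80, SE 0.28, adjusted p = 7.23e-07 in edgeR). In SCaBER KRT18 fell under siFOXA1.1 (-0.91, SE 0.17, adjusted p = 0.00328), where 4.79% of all genes were called lower. No other marker of these lists was called in that line. The part of these markers in the HMG results was not tested.

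The genes whose pattern was most like that of HMGB1 over the 16 libraries, each line centred on its mean, were H2AFZ (Pearson r = 0.980), PABPC4 (0.951), CDC42SE2 (0.943), BAZ1B (0.924) and CDC6 (0.917), among 9705 genes. H2AFZ encodes the histone variant H2A.Z and BAZ1B a chromatin remodelling subunit. For HMGA2 over the 8 RT112 libraries they were FICD (0.939), TMC7 (0.936), LATS1 (0.928), DCUN1D5 (0.926) and CXADR (0.913), among 10924 genes. These values share libraries and depth and were picked as the highest of many, so they carry no test.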

How the data were processed

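The authors sequenced 3′ ends of mRNA with the QuantSeq FWD kit. According to the labels and the configuration table, TrimGalore 0.6.2 trimmed the reads (minimum quality 20, minimum length 10), and STAR 2.6.1a mapped them to hg38 and counted them over GENCODE 29. The study's methods name hg19 and 10 ng of siRNA, where the labels give hg38 and 10 nM. The authors deposited whole-number gene counts and, as TPM, length-scaled values whose gene lengths are not given in the sources used here. A 3′ kit gives about 1 read per transcript whatever its length, so TPM was used only for alternatives.

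Counts were fitted for all genes with edgeR 4.0.16 in R 4.3.3 (TMM, filterByExpr, quasi-likelihood F test, Benjamini-Hochberg over all genes tested, threshold 0.05), per line for the siRNAs, on the siControl libraries for the lines, and on all 16 libraries for the interaction. SE is the absolute log2 change divided by the root of F. Alternatives used DESeq2 1.42.0, limma 3.58.1 on log2(TPM + 1) and log2(TPM + 0.1), other scalings, no filter, the replicate block, either control alone and each library left out. They were read for the 8 members only, so calls of genes from the other lists were not checked in this way. The script was tested on simulated data.

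The labels call the replicate number an experiment batch, so it pairs the libraries by design. Deviations of same-numbered libraries from their group means correlated at r = -0.0184 to 0.0137 in RT112 and 0.0187 to 0.200 in SCaBER, and 1 of 12 pairs was over 0.1. All 8 members were named in every comparison. Of the other lists, the called genes with the largest change were named, up to 4 per list and line, and HMGB2 and HMGN4 always. The members and lists were chosen with earlier results of these data known. Replicates of each group were not duplicate deposits. Promoters and gene coordinates are from RefSeq on GRCh38.p14, and no coordinate of the deposited tables was used.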

Additional observations from a re-analysis of the deposited data

Results flagged for a closer look

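Of 32 sets of 4 libraries checked (each member in the siControl or the siFOXA1 libraries of a line), 2 held a library far from the other 3. The limit used flags about 1 in 20 by chance only where all 4 libraries are alike. Each set here mixes 2 siRNAs, so that rate does not apply. HMGN2 had 143.98 CPM in RT112 siControl.2 replicate 1, against 93.6 to 101 CPM in the other siControl libraries of the line. Without that library its change under siFOXA1.1 was still called. HMGN5 had 5.19 CPM there, or 39 counts, against 0.789 to 1.11 CPM, or 6 to 8 counts, in the others.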

How the results depend on the processing

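Over 104 log2 changes of members (8 members in 13 comparisons) and 1816 alternatives, 1710 stayed on the same side of the threshold. A call was lost in 76, gained in 30, and 0 reversed a called change. Direction was not compared where neither fit made a call. For HMGN5 under the pooled siRNAs in RT112, uncalled changes ran from -0.50 to 1.32. Of 80 alternative levels relative to siControl (TMM-scaled CPM, TPM, pseudogenes added), 66 moved by less than 1 SD between libraries.

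The number of members called for the pooled siFOXA1 siRNAs in RT112 was 1, and 0 with library totals alone, both limma fits, the replicate block, siControl.1 or siControl.2 alone as the control, and every library left out (range 0 to 0). In SCaBER the pooled count was 0, and 2 without the filter and in DESeq2, and 0 to 1 with a library left out. For siFOXA1.1 in SCaBER it was 5, and 3 in both limma fits and with either control alone, and 3 to 6 with a library left out. For siFOXA1.2 in SCaBER it was 1, and 3 without the filter and in DESeq2, 0 in both limma fits and with siControl.2 alone, and 0 to 2 with a library left out. For siFOXA1.1 against siFOXA1.2 in SCaBER it was 3, and 1 to 4 with a library left out. For siControl.1 against siControl.2 in RT112 it was 0, and 1 in DESeq2. For the interaction it was 0 under siFOXA1.1, and 1 without the filter and in DESeq2. Under siFOXA1.2 it was 0, and 1 without the filter. The member was HMGA2 each time, and nothing is read from these calls. The cause of these shifts was not tested, except that a fit without a library has fewer samples. Where a library is left out, the lone library of its siRNA is assumed to vary like the other groups. The replicate block changed the other calls named beside their results and no further call of a member against the controls. Counts in RT112 for each siFOXA1 siRNA and between the lines stayed within 1.5 times. The fewest counts of a member per library were 6 for HMGN5 and 24 for HMGA2, both in RT112.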

Other observations

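HMGN3-AS1, named as an antisense gene of HMGN3, had 0.935 to 1.55 CPM in the SCaBER siControl libraries and 3.03 to 4.91 CPM in the siFOXA1 libraries, or 6 to 8 and 16 to 33 counts. In RT112 it had 0.556 to 5.06 CPM and 0.874 to 3.82 CPM. The kit keeps the strand of the RNA, and which strand setting the counting used was read automatically per the deposited configuration.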
